A study of Mus musculus with 24 samples.

Results

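A set of 7 genes of thyroid hormone signalling was followed in mouse embryonic cortex, in tissue of the ventricular zone: the deiodinases Dio2 and Dio3, the transporter Slco1c1, the receptors Thra and Thrb, and the hormone-responsive genes Klf9 and Hr. They were taken as the rows of the deposited table that carry these symbols, 7 of its 22529 genes, and 7 of 7 passed the filter on low values described below. The table gives normalized read counts, that is, reads of a gene divided by a size factor of the library, from 24 libraries of polyA-selected RNA sequenced after a stranded TruSeq preparation. The groups were Prdm16 conditional knockout (cKO) and wild type (WT) C57BL/6 embryos on 4 days of gestation (E11.5 and E13.5, then E15.5 and E17.5), with 3 libraries in each of the 8 groups, lettered A, B and C. The labels speak of 3 pairs of WT and cKO embryos without saying which libraries form a pair, and they name no Cre line that drives the deletion. The deposited names of the WT libraries at E13.5 and E17.5 carry an extra digit after the letter, which no other library name does. What the digit marks is not stated. If it marks a separate set of libraries, that set cannot be told apart from genotype on those days. If libraries of a group share an embryo, the p-values cover technical spread in part.

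Thyroid hormone reaches the brain mainly as thyroxine (T4), which transporters such as OATP1C1, the product of Slco1c1, carry across cell membranes. Type 2 deiodinase, encoded by Dio2, converts T4 into the active hormone T3 and in the brain is known chiefly from glial cells, while type 3 deiodinase, encoded by Dio3, inactivates both hormones. T3 acts through the nuclear receptors TRα (Thra) and TRβ (Thrb), which bind DNA with retinoid X receptors (RXRs) and recruit corepressors without hormone and coactivators with it. Klf9, a zinc-finger transcription factor, and Hr, the hairless corepressor that binds the receptors, are genes whose transcription rises with T3 in the rodent brain.

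The libraries held between 25639836 and 38879931 reads, and 3 features of them touch the results. Prdm16 itself read 868 to 1397 in cKO against 2030 to 2206 in WT at E11.5, and 1784 to 1936 in cKO against 4772 to 6369 in WT at E13.5. At E15.5 the groups were closer, 2025 to 2458 in cKO against 2504 to 2632 in WT. At E17.5, however, it read 2983, 3594 and 3866 in the libraries labelled cKO, against 2070, 2000 and 2052 in those labelled WT, the opposite direction. The count covers the whole gene and would include reads outside a deleted part, which the labels do not name, so that it is a limited check of the labels. The C library lay close to a weighted sum of A and B in 5 groups (both genotypes at E11.5 and E15.5, and cKO at E13.5), and in the 3 of these groups whose A and B differed in sex (cKO on E13.5 as well as E15.5, WT on E11.5) C carried both Xist and Y-linked transcripts. These 5 groups are given with n = 3 but may hold fewer independent libraries, and results are also given without the C libraries. In addition, 9 epidermal markers summed to 17362 and 8744 in WT E15.5 libraries B and C, against 260 in WT E15.5 A and 233 to 278 in cKO at E15.5. In the same libraries 9 meningeal markers summed to 120360 and 59326, against 1813 in WT E15.5 A and 1441 to 2371 in cKO at E15.5. Sex was not balanced either. Xist without Y-linked transcripts was found in 3, 1, 1 and 2 of 3 cKO libraries in order of day, and in 1, 0, 0 and 3 of 3 WT libraries. At E15.5 3 of 3 WT libraries carried Y-linked transcripts without Xist.

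The annotation (GENCODE M21, GRCm38) places Dio2 at chr12:90724552-90738438 on the minus strand and the single-exon gene Dio3 at chr12:110279068-110281097 on the plus strand. Slco1c1 lies at chr6:141524368-141570177, Thra at chr11:98740638-98769006, Thrb at chr14:17660261-18038090, Klf9 at chr19:23141226-23168134 and Hr at chr14:70552212-70573548, each on the plus strand. The last exons of Thra share 263 bases with the antisense gene Nr1d1, and Dio2 shares 100 bases with the antisense gene Gm26512, which never read above 7.60. The strand setting of the counting is not known from the labels, so reads of these overlaps cannot be assigned to 1 gene. The values are per gene, so the T3-binding TRα1 and the splice form TRα2, which does not bind T3, are counted together under Thra.

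Of the 7 genes, 5 had an entry among RefSeq's promoter windows (GRCm38.p6). The windows of Dio2 and Thrb are shown because these were the 2 genes that passed the test between genotypes at E15.5; Thrb has 2 annotated starts. Each window holds bases upstream of a start that lie outside GENCODE exons of the gene, 5′ to 3′ on the gene's strand, and capitals mark motif matches.
Dio2, chr12:90739039-90739288, minus strand: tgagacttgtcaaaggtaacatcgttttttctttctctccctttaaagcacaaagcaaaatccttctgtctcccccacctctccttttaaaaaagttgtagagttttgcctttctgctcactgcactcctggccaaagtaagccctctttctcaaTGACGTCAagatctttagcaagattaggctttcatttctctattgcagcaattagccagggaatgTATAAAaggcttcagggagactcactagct
Thrb, first window, chr14:17660710-17660891, plus strand: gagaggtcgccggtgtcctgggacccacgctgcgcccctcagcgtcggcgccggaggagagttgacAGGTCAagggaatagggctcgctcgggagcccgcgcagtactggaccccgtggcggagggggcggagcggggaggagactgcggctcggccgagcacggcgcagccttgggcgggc
Thrb, second window, chr14:17981394-17981528, plus strand: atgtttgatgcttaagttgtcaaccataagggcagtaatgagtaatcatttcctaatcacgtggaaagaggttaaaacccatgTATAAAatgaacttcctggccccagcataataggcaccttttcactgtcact
The letters searched on both strands were TGACGTCA, the palindromic cyclic AMP response element, AGGTCA, the half-site that thyroid hormone receptors and many other nuclear receptors bind, and TATAAA, the TATA box; none of them contains another. The Dio2 window has 1 TGACGTCA, starting 95 bases before the start, and 1 TATAAA; its GC content is 41.6%. The first Thrb window has 1 AGGTCA in 182 bases with a GC content of 74.2%, and the second has 1 TATAAA in 135 bases with a GC content of 39.3%. Among 32851 windows of 250 bases, 1.55% held TGACGTCA, 14.0% AGGTCA and 12.4% TATAAA. A match is a description of these letters and not evidence that a factor binds there.

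Every one of the 7 genes changed over development in both genotypes, 6 upward and Dio3 downward. Between E17.5 and E11.5, limma on log2(value + 1) with Benjamini-Hochberg adjustment at 0.05 called 6 of 7 members higher and 1 of 7 lower in cKO, where it called 35.2% of the 17518 genes tested higher and 32.5% lower. In WT it likewise called 6 members higher and 1 lower, where the shares of all tested genes were 38.4% higher and 36.4% lower. Genes entered the test when a value of 10 was reached in 3 or more libraries. Slco1c1 had the largest change in either genotype, +7.80 ± 0.54 on the log2 scale in cKO and +7.37 ± 0.54 in WT (log2 fold change ± SE, as below). In order of size in WT, Hr followed with +5.30 ± 0.37, Dio2 with +4.91 ± 0.29, Thrb with +3.24 ± 0.37, Thra with +3.22 ± 0.13 and Klf9 with +2.08 ± 0.31, and Dio3 changed by -3.49 ± 0.84. In bulk tissue a change in the share of a cell type and a change in RNA per cell cannot be told apart. From E11.5 to E17.5 the summed level of 10 neuron markers was 48591 to 48713, then 64643 to 67933, 247689 to 266190 and 160911 to 201350 in cKO, and 64950 to 77130, 92469 to 138059, 211062 to 267907 and 397036 to 449286 in WT; its part in the members' changes was not tested.

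**Figure D1:**
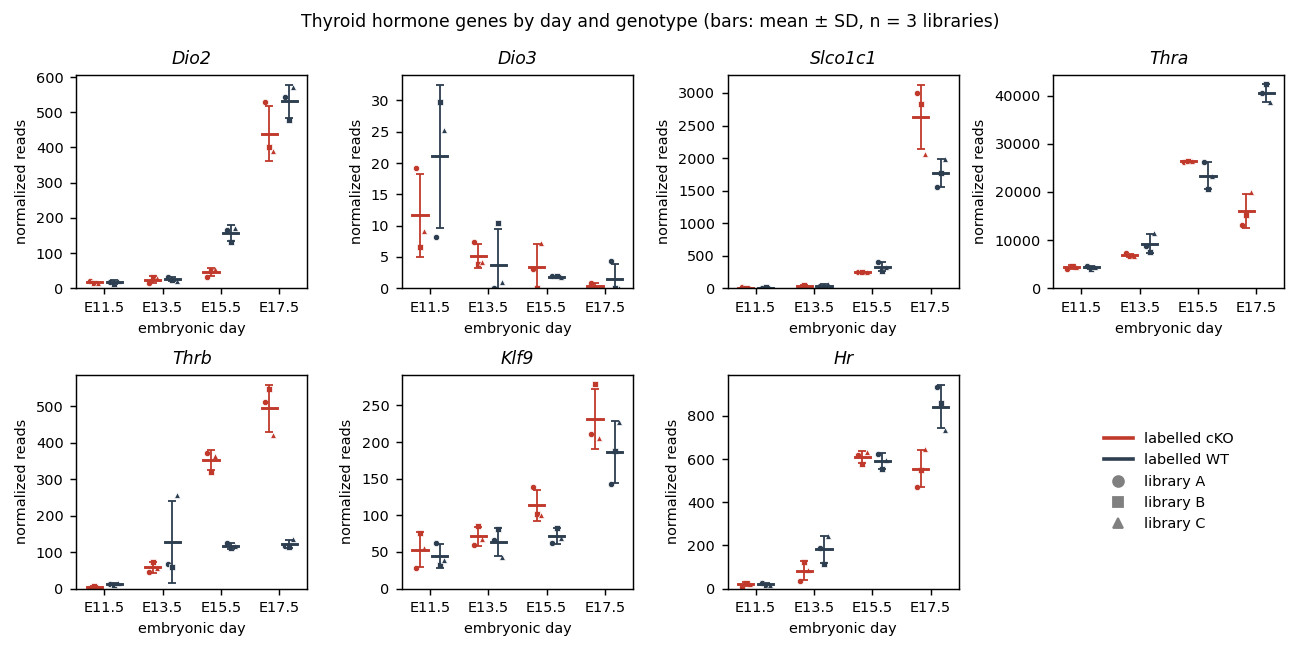
Normalized read counts of the 7 genes by embryonic day, libraries labelled cKO left of those labelled WT; symbols are single libraries and bars are the mean ± SD of 3. Dio2 separates the genotypes at E15.5 and Thrb at E15.5 and E17.5, while Thra at E17.5 is below its E15.5 level in libraries labelled cKO and above it in WT.

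The steps came on different days. From E11.5 to E13.5, 3 members were called in cKO (Thra, Thrb and Hr, beside 25.1% of all tested genes called in either direction) and 5 in WT (Slco1c1, Thra, Thrb and Hr higher, Dio3 lower, beside 55.3%). From E13.5 to E15.5, 5 members were called in cKO (Dio2, Slco1c1, Thra, Thrb and Hr, beside 61.8%) and 4 in WT (Dio2, Slco1c1, Thra and Hr, beside 47.0%). From E15.5 to E17.5, 4 were called in cKO (Dio2, Slco1c1 and Klf9 higher, Thra lower, beside 29.0%) and 4 in WT (Dio2, Slco1c1, Thra and Klf9, beside 32.1%).

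Between genotypes, no member was called at E11.5, 2 were called at E13.5 (Thra and Hr lower in cKO), 2 at E15.5 (Dio2 lower and Thrb higher in cKO) and 2 at E17.5 (Thra lower and Thrb higher in libraries labelled cKO). Of all tested genes, 0.611% were called higher and 2.52% lower in cKO at E11.5, 9.79% higher and 12.5% lower at E13.5, 0.833% higher and 1.68% lower at E15.5, and 18.6% higher and 21.8% lower at E17.5. At E15.5 1 of 7 members was called in each direction, and limma made neither call without the 5 C libraries. At E17.5 the members' share lay near that of all genes. The members were chosen with earlier results of these data known, so these counts cannot show an excess over all genes. At E11.5 the only member with an unadjusted p under 0.05 was Thrb, and edgeR and DESeq2 on the recovered reads also called none. Klf9, Dio3 and Slco1c1 were called on no day.

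**Figure D2:**
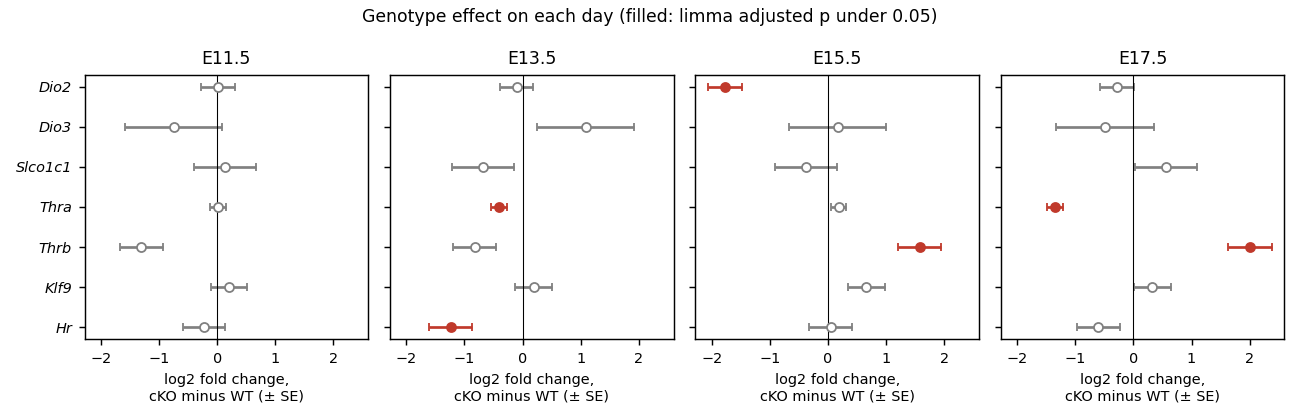
Log2 fold change, cKO minus WT, of each gene on each day, with its standard error; filled red points have a limma adjusted p under 0.05. Dio2 stands at -1.77 at E15.5 and near 0 on the other days, and Thrb lies below 0 at E11.5 and E13.5 and above 0 at E15.5 and E17.5.

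Dio2, the activating enzyme, was low in both genotypes until E13.5, and at E15.5 it stood well below WT in cKO. At E11.5 it read 19.2, 16.2 and 15.2 in cKO and 19.1, 11.1 and 21.4 in WT. At E13.5 it read 13.6, 32.3 and 28.0 in cKO and 31.7, 23.6 and 20.7 in WT, so the genotypes overlapped on both days. At E15.5 it read 32.8, 49.0 and 55.2 in cKO, against 166, 130 and 172 in WT, with every cKO library below every WT library. At E17.5 it read 530, 400 and 389 in libraries labelled cKO and 543, 478 and 572 in WT, and the groups overlapped again. The E15.5 difference was -1.77 ± 0.29 (limma adjusted p = 0.00132), a mean of 45.7 ± 11.6 in cKO against 156 ± 22.6 in WT (SD, n = 3 each), or 0.292 times the WT level. Between E13.5 and E15.5 Dio2 changed by +0.92 ± 0.29 in cKO and by +2.59 ± 0.29 in WT, and between E15.5 and E17.5 by +3.26 ± 0.29 in cKO and by +1.77 ± 0.29 in WT. Among the 8 group means, the 4 at E11.5 and E13.5 overlapped with their neighbours in order, while each of cKO E15.5, WT E15.5 and cKO E17.5 lay clear of the mean below it.

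The Dio2 difference at E15.5 was as large without the doubtful libraries, but its adjusted p was not below 0.05 in each case. Without the 5 C libraries it was -1.85 (limma adjusted p = 0.0599; edgeR adjusted p = 0.0350), and without WT B and C it was -1.87 (limma adjusted p = 0.0733). WT library A, which carried neither the epidermal nor the meningeal signal, read 166 by itself. Of 8 astroglial markers, Gfap and Aqp4 were also called lower in cKO at E15.5 and 6 were not called. Gfap, the glial intermediate filament, read 1.03, 1.92 and 1.02 in cKO against 13.7, 8.68 and 18.9 in WT. Aqp4, the astrocyte water channel, read 20.5, 15.4 and 19.4 in cKO against 39.1, 41.5 and 49.0 in WT. The sum of the 8 markers was 8378 to 9124 in cKO and 8654 to 10707 in WT, and that of 11 endothelial markers 7270 to 7381 in cKO and 7431 to 10221 in WT; their part in the Dio2 difference was not tested.

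Dio3, the inactivating enzyme, was a low-count gene that was highest at E11.5. It read 19.2, 6.66 and 9.14 in cKO and 8.19, 29.7 and 25.3 in WT at E11.5, which rests on 7 to 15 reads per cKO library and 9 to 32 per WT library. At E13.5 it read 7.33, 3.91 and 4.15 in cKO and 0, 10.4 and 0.939 in WT, and at E15.5 it read 3.08, 0 and 7.16 in cKO and 1.95, 1.93 and 1.72 in WT. By E17.5, 1 read was left in 1 of 3 libraries labelled cKO and 4 reads in 1 of 3 WT libraries, with 0 reads in the others. Genotypes overlapped on every day, and no difference between them was detectable at this depth: the log2 differences were -0.75 ± 0.84, +1.09 ± 0.84, +0.17 ± 0.84 and -0.49 ± 0.84 from E11.5 to E17.5. The decline over development was called in both genotypes, by -3.23 ± 0.84 in cKO (limma adjusted p = 0.00201) and -3.49 ± 0.84 in WT (limma adjusted p = 0.000871); its size depends on the added pseudocount of 1, because the E17.5 values lie at or near 0. The deiodinase Dio1 was not analysed here.

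Dio3 sits in the imprinted Dlk1-Dio3 domain, of which 6 genes were tested. Between E17.5 and E11.5, Dlk1 was called lower along with Dio3 in both genotypes, and Rian and Mirg were called lower in cKO. Meg3 was called higher in both genotypes and Rian higher in WT. Of all tested genes, 35.2% were called higher and 32.5% lower in cKO, and 38.4% higher and 36.4% lower in WT. None of the 5 further genes tested (Dlk1, Meg3, Rtl1, Rian and Mirg) was called between genotypes at E11.5 or E13.5. At E15.5 Dlk1, a paternally expressed Notch-like ligand, was called lower in cKO by -2.85 ± 0.73 (limma adjusted p = 0.0385). It read 102, 150 and 119 in cKO against 120, 3299 and 1724 in WT, where the high values are those of libraries B and C, which also carried the epidermal and meningeal signals, and without WT B and C the difference was +0.02. At E17.5 the maternally expressed noncoding RNAs Meg3, Rian and Mirg were called lower in libraries labelled cKO, by -1.40 ± 0.30, -1.61 ± 0.16 and -1.22 ± 0.25. Dio3os was not analysed here.

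Slco1c1, the T4 transporter known from brain capillaries, choroid plexus and astrocytes, was nearly absent at E11.5 and among the more abundant members at E17.5. It read 14.1, 10.5 and 8.13 in cKO and 6.37, 17.6 and 7.79 in WT at E11.5. Its E13.5 values were 6.28, 52.8 and 21.8 in cKO and 41.3, 13.2 and 61.0 in WT, a wide spread within each group. Values at E15.5 were 252, 244 and 252 in cKO and 397, 262 and 328 in WT, and at E17.5 it read 2994, 2835 and 2066 in libraries labelled cKO and 1558, 1771 and 1980 in WT. On these last 2 days the groups did not overlap, with cKO lower at E15.5 and the libraries labelled cKO higher at E17.5. How many of all genes fail to overlap was not counted, for this or any other member. Absence of overlap alone therefore does not mark a difference, the less so at E15.5, where the C libraries may not be independent. Neither difference passed the test: it was -0.38 ± 0.54 at E15.5 (limma adjusted p = 0.991) and +0.56 ± 0.54 at E17.5 (limma adjusted p = 0.439). A fit to the 6 E17.5 libraries alone, which uses only their own spread, called the E17.5 difference (limma adjusted p = 0.018). The sum of 11 endothelial markers at E17.5 was 10000 to 11981 in libraries labelled cKO and 9559 to 10064 in WT, and that of the astroglial markers 17127 to 18766 in libraries labelled cKO and 6666 to 7026 in WT; their part was not tested.

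Thra, the receptor gene with the most reads, rose up to E17.5 in WT but not in the libraries labelled cKO. It read 4070, 4708 and 4447 in cKO and 4647, 4085 and 4340 in WT at E11.5, with the genotypes overlapping. Its E13.5 values were 7214, 6730 and 6598 in cKO against 8701, 7615 and 11375 in WT, every cKO library below every WT library. Values at E15.5 were 26303, 26343 and 26308 in cKO and 26141, 20617 and 23246 in WT. The groups did not overlap there, with cKO higher, but the small difference of +0.18 ± 0.13 did not pass the test. At E17.5 it read 13167, 15173 and 20023 in libraries labelled cKO, against 40576, 42433 and 38706 in WT, so that the groups were far apart. The E17.5 difference was -1.35 ± 0.13 (limma adjusted p = 1.11e-07), or 0.397 times the WT level, and was called in all alternatives run for that day. Between E15.5 and E17.5 Thra changed by -0.73 ± 0.13 in cKO (limma adjusted p = 0.00038) and by +0.80 ± 0.13 in WT (limma adjusted p = 0.000151).

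At E13.5 Thra was lower in cKO by -0.41 ± 0.13 (limma adjusted p = 0.0344). That call was lost without the 5 C libraries (limma adjusted p = 0.191), in a fit to the 6 E13.5 libraries alone (limma adjusted p = 0.135), and when any 1 of WT A, WT C or the 3 cKO libraries was left out. Leaving out WT C, the library with the highest neuron markers of its group (138059), reduced it to -0.25. WT C also had the highest ventral forebrain sum of its group. At E13.5 the 12 ventral forebrain markers summed to 89.0 to 634 in cKO and 1001 to 5412 in WT. Of these markers, 8 were called lower in cKO, beside 12.5% of all tested genes. Their part in the members' E13.5 differences was not tested. Nr1d1, the antisense neighbour, was called lower on the same days as Thra, by -0.54 ± 0.12 at E13.5 and -0.69 ± 0.12 at E17.5. It read 144 to 171 in cKO against 208 to 265 in WT at E13.5. At E17.5 it read 274 to 303 in libraries labelled cKO against 419 to 497 in WT. The E13.5 call on Nr1d1 was also lost without the 5 C libraries (-0.46, limma adjusted p = 0.0892). Across the 8 group means, log2 Thra followed the log2 sum of the 10 neuron markers with a Pearson r of 0.983. That r was 0.938 for Hr, 0.881 for Slco1c1, 0.823 for Dio2, 0.761 for Thrb and 0.746 for Klf9, so a positive r was not particular to Thra. With the astroglial sum, r was -0.037 for Dio2 and -0.005 for Slco1c1. These group means share library, day and depth, so r is a description. At E17.5, 9 of the 10 neuron markers were called lower in libraries labelled cKO and 9 of 10 radial glia markers were called higher, with summed radial glia levels of 162652 to 175159 in libraries labelled cKO and 66902 to 71177 in WT; their part in the Thra difference was not tested.

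Thrb, the other receptor gene, was higher in libraries labelled cKO at both late stages, E15.5 and E17.5. At E11.5 it read 2.56, 5.71 and 5.08 in cKO against 9.27 to 15.6 in WT, on 2 to 6 and 10 to 16 reads per library; the groups did not overlap, and the difference of -1.30 ± 0.37 missed the threshold (limma adjusted p = 0.0668). Values at E13.5 were 45.0, 73.3 and 55.0 in cKO and 67.3, 59.4 and 257 in WT, where 1 WT library stood far above the other two. At E15.5 it read 372, 321 and 365 in cKO, against 126, 110 and 117 in WT. At E17.5 it read 512, 548 and 423 in libraries labelled cKO, against 118, 114 and 136 in WT. On both late days every library labelled cKO was above every WT library. The difference was +1.57 ± 0.37 at E15.5 (limma adjusted p = 0.0270) and +2.002 ± 0.37 at E17.5 (limma adjusted p = 0.000213), or 2.996 and 4.04 times the WT level. In WT, Thrb changed by +2.98 ± 0.37 from E11.5 to E13.5 and then by no more than +0.21 per step. These WT steps lean on library C of E13.5, which read 257. With 1 library left out, the WT step to E13.5 went down to +2.31. The WT step from E13.5 to E15.5 then went up to +0.88 (lowest limma adjusted p = 0.00853). In cKO, Thrb went on to change by +2.61 ± 0.37 from E13.5 to E15.5 (limma adjusted p = 4.81e-06).

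The E17.5 call on Thrb held in all alternatives run for that day, but the E15.5 call did not, although its size hardly moved. Without the 5 C libraries the E15.5 difference was +1.54 (limma adjusted p = 0.589), without WT B and C it was +1.47 (limma adjusted p = 0.857), and it also lost its call when any 1 library other than WT A was left out (limma adjusted p = 0.0753 to 0.140). At E13.5 the difference of -0.83 ± 0.37 (limma adjusted p = 0.115) was called by edgeR (-1.12, adjusted p = 0.0363) and also by DESeq2, and by limma it was -0.16 without WT C. At E15.5 none of the 10 neuron markers and none of the 10 radial glia markers was called between genotypes. At E17.5 Thrb was higher in libraries labelled cKO while the summed neuron markers were lower, 160911 to 201350 against 397036 to 449286 in WT. Radial glia sums were higher on both late days, 92946 to 93994 in cKO against 72160 to 75374 in WT at E15.5 and 162652 to 175159 in libraries labelled cKO against 66902 to 71177 in WT at E17.5. Astroglial sums at E17.5 were 17127 to 18766 in libraries labelled cKO against 6666 to 7026 in WT; the part of these markers in the Thrb difference was not tested.

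**Figure D3:**
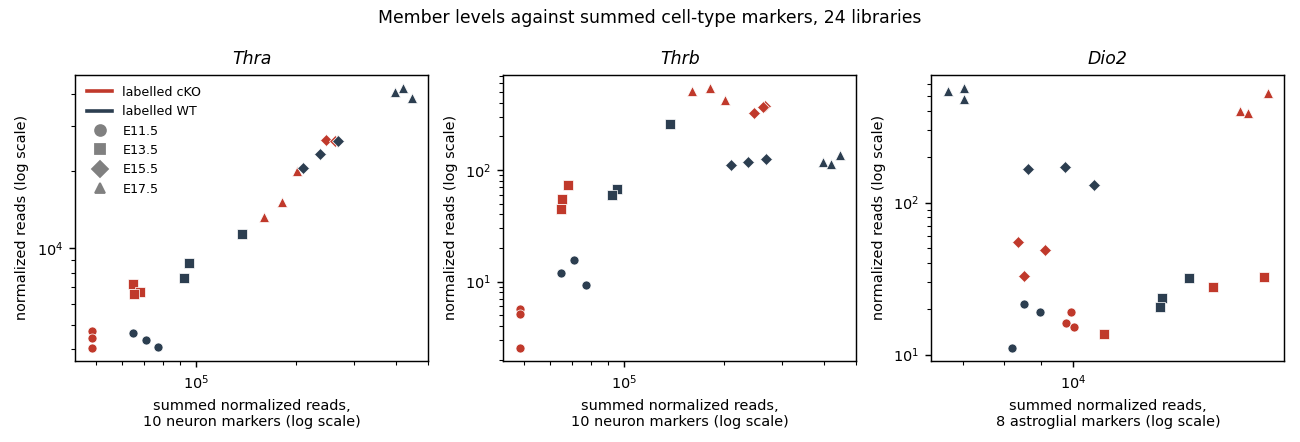
Normalized read counts of Thra, Thrb and Dio2 in 24 libraries against the summed counts of neuron markers (left and middle) or astroglial markers (right), both axes on a log scale; colours give the labelled genotype and symbols the day. Thra lies along 1 band with the neuron markers (r of 0.983 over the 8 group means). For Thrb the libraries labelled cKO lie above the WT libraries of the same day at E15.5 and E17.5. The neuron sums of the genotypes overlap at E15.5 and are lower in libraries labelled cKO at E17.5.

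Per kilobase of annotated exon, Thra stood far above Thrb in every group. At E17.5 Thra had 3494 ± 764 normalized reads per kilobase in libraries labelled cKO and 8793 ± 404 in WT (SD, n = 3 each), and Thrb had 66.8 ± 8.72 in libraries labelled cKO and 16.5 ± 1.57 in WT. Expressed as Thrb's percentage of the sum of both receptors per kilobase, Thrb had 0.0620 ± 0.0198% in cKO and 0.174 ± 0.0432% in WT at E11.5, and 0.526 ± 0.144% in cKO and 0.785 ± 0.525% in WT at E13.5. At E15.5 it had 0.828 ± 0.0655% in cKO and 0.315 ± 0.0160% in WT. At E17.5 its share was 2.37, 2.20 and 1.30% in libraries labelled cKO, against 0.180, 0.167 and 0.218% in WT. At E15.5 and E17.5 Thrb's share of this receptor RNA was thus higher in every library labelled cKO than in any WT library of the same day. The share was not tested, and Thra includes TRα2, which does not bind T3. At E15.5 the C libraries may not be independent. Scaled to the longest annotated transcript in place of all exons, the E17.5 means were 1.25% in libraries labelled cKO and 0.120% in WT, so the level of the share depends on which transcripts are counted.

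**Figure D4:**
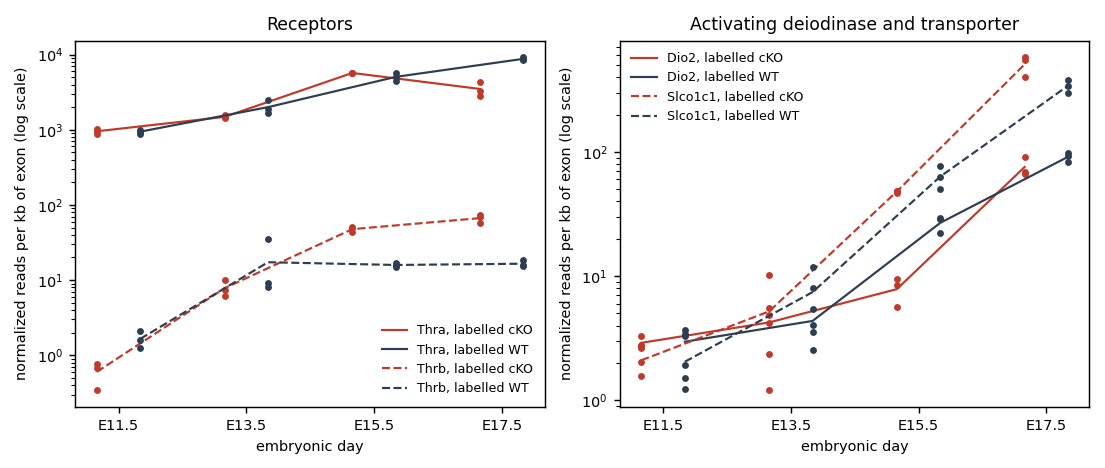
Normalized reads per kilobase of annotated exon, on a log scale, for Thra and Thrb (left) and for Dio2 and Slco1c1 (right); lines join group means and points are single libraries. Thra at 3494 and Thrb at 66.8 in libraries labelled cKO at E17.5 are closer together than the 8793 and 16.5 of WT.

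Klf9, a hormone-responsive transcription factor, rose modestly and late. It read 28.2, 75.2 and 55.9 in cKO and 62.8, 31.5 and 38.9 in WT at E11.5, and 59.7, 86.0 and 67.5 in cKO and 66.3, 81.1 and 43.2 in WT at E13.5. Values at E15.5 were 138, 102 and 100 in cKO and 61.5, 83.0 and 68.8 in WT, which did not overlap. At E17.5 it read 211, 279 and 205 in libraries labelled cKO and 143, 188 and 228 in WT, which did. The genotype difference was positive on each day, between +0.19 ± 0.31 and +0.66 ± 0.31, and passed the test on none (limma adjusted p = 0.455 at E15.5). The step from E15.5 to E17.5 was called in both genotypes, +1.03 ± 0.31 in cKO (limma adjusted p = 0.0183) and +1.36 ± 0.31 in WT (limma adjusted p = 0.00255).

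Hr, the corepressor that is also a T3 target, climbed steeply between E11.5 and E15.5. It read 8.96, 27.6 and 20.3 in cKO and 27.3, 17.6 and 17.5 in WT at E11.5. At E13.5 it read 36.7, 124 and 85.2 in cKO against 188, 115 and 242 in WT, where the lowest WT library lay within the cKO range. Its E15.5 values were 619, 578 and 632 in cKO and 623, 552 and 595 in WT, a difference of +0.05 ± 0.37. At E17.5 it read 472, 549 and 645 in libraries labelled cKO against 935, 858 and 736 in WT, which did not overlap. The E13.5 difference of -1.24 ± 0.37 passed the test (limma adjusted p = 0.0218) and the E17.5 difference of -0.61 ± 0.37 did not (limma adjusted p = 0.205). The E13.5 call was lost without the 5 C libraries (limma adjusted p = 0.101), in a fit to that day's libraries alone (limma adjusted p = 0.162), and without WT A, WT C or cKO A, the last of which reduced it to -0.75. The fit to the 6 E17.5 libraries alone called the E17.5 difference (limma adjusted p = 0.0091).

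Whether the genotype difference itself changed with the day was tested directly. A joint F test over the 4 days called 3 of 7 members, Thra (F = 26.2, limma adjusted p = 1.44e-05), Thrb (F = 19.9, limma adjusted p = 7.31e-05) and Dio2 (F = 8.54, limma adjusted p = 0.00489), where 32.2% of all tested genes were called. Between E13.5 and E11.5 no member's difference changed by the test, where 0.285% of genes did. On that step Thra alone had an unadjusted p under 0.05 by limma, and edgeR called none either. From E13.5 to E15.5 the difference changed for Dio2 by -1.67 ± 0.40 (limma adjusted p = 0.0230) and for Thrb by +2.40 ± 0.53 (limma adjusted p = 0.0159), where 6.21% of genes were called. From E15.5 to E17.5 it changed for Dio2 by +1.49 ± 0.40 (limma adjusted p = 0.00833) and for Thra by -1.53 ± 0.19 (limma adjusted p = 6.40e-06), where 29.1% were called. Both of these steps rest on the same E15.5 libraries. Without the 5 C libraries the step from E13.5 to E15.5 was -1.62 for Dio2 (limma adjusted p = 0.323) and +2.35 for Thrb (limma adjusted p = 0.321).

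The rest of the pathway was read from 41 further genes, 39 of them tested. Of these 39, 0 were called higher and 1 lower in cKO at E11.5, 1 higher and 9 lower at E13.5, 1 higher and 1 lower at E15.5, and 6 higher and 16 lower in libraries labelled cKO at E17.5. The shares of all tested genes called higher in cKO were 0.611%, 9.79%, 0.833% and 18.6% in order of day, and those called lower 2.52%, 12.5%, 1.68% and 21.8%. Their median log2 difference was -0.01, -0.05, +0.05 and -0.10 on the 4 days, beside -0.0039, -0.02, +0.04 and -0.04 over all genes tested. Without the 5 C libraries the counts were 0 and 0 on both E13.5 and E15.5, while the 1 call at E11.5 was kept. Of all tested genes, that setting called 97 at E11.5, 462 at E13.5 and 39 at E15.5, beside 548, 3911 and 441 with all libraries. Counts of 0 there thus say little about the pathway in particular. The counts without libraries were added after the data were seen. None of the calls given below for E13.5 and E15.5 was made without those libraries.

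**Figure D5:**
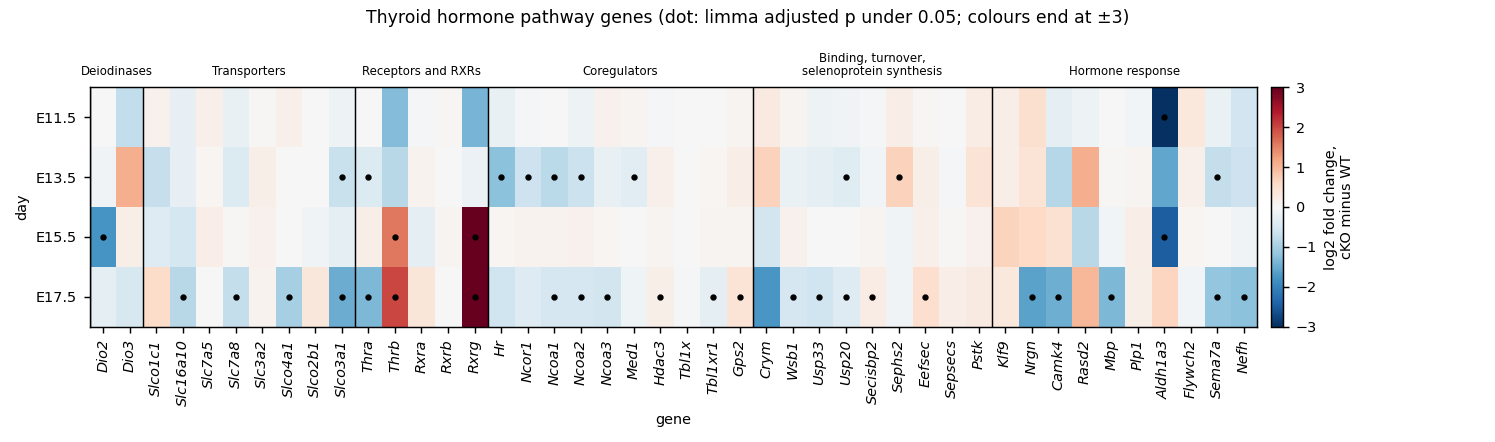
Log2 fold change, cKO minus WT, of tested pathway genes (columns; not every one is drawn; grouped by role) on each day (rows); red is higher in cKO, blue is lower, colours end at 3 in either direction, and a dot marks a limma adjusted p under 0.05. Rxrg and Thrb are the darkest red genes at E15.5 and E17.5, and the blue dots at E13.5 gather among the coregulators.

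Among the receptors' partners, Rxrg, the RXR gamma gene, was called higher on the same days as Thrb. It read 1.28 to 9.52 in cKO and 5.46 to 14.8 in WT at E11.5, and 1.05 to 3.12 in cKO and 0 to 8.49 in WT at E13.5. Its E15.5 values were 81.0, 80.7 and 70.6 in cKO against 5.86, 13.5 and 7.74 in WT, a difference of +3.03 ± 0.62 (limma adjusted p = 0.0109). At E17.5 it read 328, 241 and 223 in libraries labelled cKO against 8.55, 9.85 and 5.70 in WT, a difference of +4.88 ± 0.62. Without WT B and C the E15.5 difference was +3.51 (limma adjusted p = 0.167). Rxra and Rxrb, the widely expressed RXRs, were called between genotypes on no day.

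Of the 9 transporter genes, 2 were called at E13.5, both lower in cKO, beside 12.5% of all tested genes called lower. Among the 2 was Slco3a1, an organic anion transporter, by -0.67 ± 0.14. None was called at E11.5 or E15.5. At E17.5, 1 was called higher and 4 lower in libraries labelled cKO, beside 18.6% and 21.8% of all tested genes. The largest changes were in Slco3a1 (-1.49 ± 0.14), Slco4a1 (-0.99 ± 0.26) and the MCT10 gene Slc16a10 (-0.83 ± 0.17).

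Of the 11 coregulator genes, 6 were called lower in cKO at E13.5 and none higher, where 12.5% of all tested genes were called lower and 9.79% higher. Among them were Hr, the corepressor gene Ncor1, the steroid receptor coactivators Ncoa1 (-0.81 ± 0.17) and Ncoa2 (-0.65 ± 0.15), and the Mediator subunit Med1; Ncor1 and Med1 were named after their values were seen. None of the 11 was called at E11.5 or E15.5. At E17.5, 2 were called higher and 4 lower in libraries labelled cKO, beside 18.6% and 21.8% of all tested genes, and the coactivators Ncoa3, Ncoa2 and Ncoa1 had the largest changes, between -0.55 ± 0.15 and -0.49 ± 0.17.

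Of 9 genes of hormone binding, deiodinase turnover and selenoprotein synthesis, 2 were called at E13.5, 1 in each direction. Of all tested genes, 9.79% were called higher and 12.5% lower on that day. At E13.5 Sephs2, a selenophosphate synthetase, was called higher in cKO (+0.68 ± 0.15) and Usp20, a deubiquitinase of Dio2, lower (-0.36 ± 0.09). At E17.5, 2 of the 9 were called higher and 3 lower in libraries labelled cKO, beside 18.6% and 21.8% of all tested genes. Among them were Usp33 (-0.61 ± 0.17), the elongation factor Eefsec (+0.51 ± 0.10) and Wsb1 (-0.50 ± 0.10), whose product targets the Dio2 enzyme for degradation. None was called at E11.5 or E15.5, the day on which Dio2 RNA differed.

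Among 12 tested genes known to respond to thyroid hormone in rodent brain, which include Klf9, Hr and Dio3, none was called higher on any day. Of all tested genes, 0.611%, 9.79%, 0.833% and 18.6% were called higher in order of day, and 2.52%, 12.5%, 1.68% and 21.8% lower. Aldh1a3, a retinoic acid synthesis enzyme, was called lower in cKO at E11.5 (-4.76 ± 0.63), where it read 2.56, 3.81 and 1.02 in cKO against 70.1, 94.6 and 99.3 in WT. It was called lower again at E15.5 (-2.47 ± 0.63), at values of 0 to 2.88 in cKO against 6.84 to 15.4 in WT. At E11.5, 10 of 12 ventral forebrain markers were also called lower in cKO, with sums of 83.7 to 328 in cKO and 6367 to 7877 in WT; their part was not tested. At E13.5 Hr and the membrane protein gene Sema7a (-0.72 ± 0.23) were called lower. At E17.5, 5 were called lower in libraries labelled cKO, led by Nrgn, encoding the postsynaptic calmodulin-binding protein neurogranin (-1.61 ± 0.23), the kinase gene Camk4 (-1.46 ± 0.32) and Mbp, encoding myelin basic protein (-1.36 ± 0.10). The neuron markers moved the same way on that day, as given above.

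The genes whose 8 group means were most like each member's were named by Pearson r of log2(value + 1), out of 13094 candidates with a group mean of at least 50. Over 8 means many genes reach high values, so these are descriptions. For Dio2 they were Col4a4 (r = 0.982), Sgpp1 and Rab33b, and for Dio3 Cyb5r4 (r = 0.983), Ccdc53 and F2rl3. For Slco1c1 they were the potassium channel gene Kcnk2 (r = 0.997), Tmem104 and Wbp2. For Thra they were the synaptic adhesion gene Nlgn1 (r = 0.999) and the synaptic vesicle gene Syngr1, and for Thrb the neuregulin gene Nrg1 (r = 0.991), Cipc and Plcb4. For Klf9 they were Lix1l (r = 0.981), Tmeff2 and Cstf2t, and for Hr the ion channel gene Asic1 (r = 0.998), Nos1 and Zfp658. Among the members, Dio2 and Slco1c1 had r of 0.964 with each other and Thra and Hr 0.959, while Dio3 had negative r with each of the other members, between -0.815 and -0.918.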

How the data were processed

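PolyA-selected RNA of ventricular zone tissue was sequenced in 24 libraries, 3 for each genotype and day. The authors deposited 1 table, whose signal is normalized read counts of genes. The submitters' processing notes name DESeq 1.22.1, HTSeq 0.5.3, STAR 2.5.0a and cutadapt 1.6, and the build mm10 (GRCm38). Neither the annotation nor the strand setting is known from the labels. Dividing each deposited value by the library's worth of 1 read gave whole reads for 100% of values (tolerance 0.01), and the count tests used these reads. Recovered reads ranged from 25639836 to 38879931 per library; genes near the filter's minimum rest on few reads.

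The tests were fitted to log2(value + 1) by limma 3.58.1 (R 4.3.3), using a variance trend, 1 mean for each of the 8 groups and 2-sided p-values adjusted by Benjamini-Hochberg over the 17518 genes with a value of at least 10 in 3 libraries. Fold changes on this scale understate those of low genes. The method was also run on simulated data with independent libraries and changes planted only in genes with a mean of at least 50. That setting holds no dependent C libraries, no epidermal or meningeal signal and no changes in low genes. It gives no assurance on those points. The alternatives changed the pseudocount (to 0.5 or 5), the filter (none, or a mean over all libraries of 50), the scaling (TMM) or the trend (none), or used edgeR 4.0.16 and DESeq2 1.42.0 on the recovered reads, a replicate block by letter, only the compared groups, and left-out libraries. By edgeR 465, 4087, 767 and 7088 genes were called between genotypes from E11.5 to E17.5, beside 548, 3911, 441 and 7081 by limma. Of 22529 identifiers, 99.5% matched GENCODE M21. The members, pathway lists, marker lists and doubted libraries were chosen with earlier results of these data known. The text names the 7 members, Prdm16, Nr1d1, up to 3 further called genes of each pathway list by size of change, and the 3 genes most like each member. Those outside this rule are marked or given as markers. A few genes that this rule would name are not reported here.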

Additional observations from a re-analysis of the deposited data

Results flagged for a closer look

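The genotype difference of 3 members varied between days by a direct test. For Thra the joint F over the 4 days was 26.2 (limma adjusted p = 1.44e-05), and between E15.5 and E17.5 the difference changed by -1.53 (limma adjusted p = 6.40e-06). Thra was lower in 3 of 3 libraries labelled cKO than in any WT library at E17.5, and not at E15.5.

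For Thrb the joint F was 19.9 (limma adjusted p = 7.31e-05), and between E13.5 and E15.5 the difference changed by +2.40 (limma adjusted p = 0.0159). That Thrb change was not called without the 5 C libraries, as given above, and ran from +1.73 to +2.78 with 1 library left out. For Dio2 the joint F was 8.54 (limma adjusted p = 0.00489). The Dio2 difference changed by -1.67 between E13.5 and E15.5 (limma adjusted p = 0.0230) and by +1.49 between E15.5 and E17.5 (limma adjusted p = 0.00833), with 3 of 3 cKO libraries below all WT libraries at E15.5 only. The change between E15.5 and E17.5 was called without the 5 C libraries (+1.57, limma adjusted p = 0.0368) and without WT B and C at E15.5 (+1.59, limma adjusted p = 0.0446), whereas that between E13.5 and E15.5 was called in neither. The directions that involve E17.5 rest on the labels, and the whole-gene count of Prdm16 was higher in the libraries labelled cKO on that day; that count may include reads outside the deleted part.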

How the results depend on the processing

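Development held best: 7 of 7 members were called between E17.5 and E11.5 in both genotypes, and 3 in the joint test over days, under every alternative run for them except a mean of at least 50, which removed Dio3. At E11.5, 1 member was called with a pseudocount of 0.5 instead of 0 (0 to 1 with 1 library left out). At E13.5, the 2 calls became 0 without the 5 C libraries by limma, 0 without them by edgeR and 0 in a fit to the 2 groups alone, and 3 with all libraries by edgeR and by DESeq2, which added Thrb (0 to 3 with 1 library left out). Of all tested genes, 3911 were called at E13.5 in the main fit, and 462, 332 and 640 in those 3 reduced fits in that order. With all libraries, edgeR called 4087 and DESeq2 4572. The reduced fits thus lost calls among genes at large. At E15.5, the 2 calls became 0 without the 5 C libraries, 0 without WT B and C, and 1 by edgeR without the 5 C libraries (1 to 2 with 1 library left out). Of all tested genes, 441 were called at E15.5 in the main fit, 39 by limma without the 5 C libraries and 40 by edgeR without them. At E17.5, 2 calls became 4 in a fit to the 2 groups alone (2 to 2 with 1 library left out). That fit called 7616 of all tested genes, beside 7081 in the main fit. The edgeR fit and the pathway counts without the doubted libraries were chosen after seeing the data. The cause of these changes was not tested.

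Letters gave no clear sign of pairing: same-letter correlations ran from -0.43 to 0.11, with 1 of 12 over 0.1, and not every library correlated best with its own letter. The correlated values were deviations from group means, which depend on each other within a group. They cannot decide which libraries form a pair. With the letter as a replicate block the counts of members called were the same, and Dio2 at E15.5 was -1.77 (limma adjusted p = 0.00264).

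No value that turned its sign had been called. By edgeR and by DESeq2 on the recovered reads, Dio2 at E11.5 was -0.023 and -0.036, its step of the genotype difference to E13.5 +0.016 and +0.0043, the Dio3 step to E15.5 +0.35 and +0.42, the change between E13.5 and E15.5 in WT -0.96 and -1.02 for Dio3 and -0.11 and -0.12 for Thrb. A pseudocount of 5 gave -0.17 for that Dio3 change. Without the 5 C libraries, limma gave Dio3 at E15.5 as -0.54, its step to E17.5 as +0.054 and the Klf9 step to E13.5 as +0.17, and edgeR gave Dio3 at E15.5 as -0.34, the Klf9 step as +0.066, the Slco1c1 step to E15.5 as -0.051 and the WT changes to E15.5 as -0.91 for Dio3 and -0.12 for Thrb. Without WT B and C, Hr at E15.5 was -0.033 and the Thrb change to E17.5 in WT -0.047. With 1 library left out, genotype differences that turned their sign ran from -0.25 to +0.19 for Dio2, -0.55 to +0.21 for Hr, -0.10 to +0.59 for Klf9, -0.14 to +0.53 for Slco1c1 and -0.033 to +0.073 for Thra at E11.5. At E13.5 they ran from -0.33 to +0.26 for Dio2, -0.061 to +0.39 for Klf9 and -1.37 to +0.068 for Slco1c1, and for Dio3 from -0.51 to +1.01 at E15.5 and -0.89 to +0.31 at E17.5. Steps ran from -0.35 to +0.25 for Dio2 and -0.41 to +0.29 for Klf9 to E13.5, -0.45 to +0.997 for Slco1c1 to E15.5 and -1.50 to +0.15 for Dio3 to E17.5. WT changes to E15.5 ran from -0.71 to +1.04 for Dio3, -0.055 to +0.39 for Klf9 and -0.16 to +0.88 for Thrb, and the Thrb change to E17.5 from -0.022 to +0.10. Of the other member values, 2080 kept their direction and their side of the threshold, 53 lost a call and 18 gained one. Depth limits Dio3 most.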

Other observations

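Over the whole course, genes of the wider hormone pathway were called in both directions in both genotypes, as were genes at large. Between E17.5 and E11.5, 15 of 39 tested pathway genes were called higher and 11 lower in cKO, and 22 were called higher and 10 lower in WT. Of all tested genes, 35.2% were called higher and 32.5% lower in cKO, and 38.4% higher and 36.4% lower in WT. The amino acid transporter gene Slc7a8 rose by +2.46 ± 0.26 in cKO and +2.95 ± 0.26 in WT (log2 fold change ± SE, limma), and the coactivator gene Ncoa1 by +2.01 ± 0.17 in cKO and +2.52 ± 0.17 in WT. Crym, which encodes the cytosolic T3-binding protein mu-crystallin, rose by +2.31 ± 0.77 in cKO and +4.33 ± 0.77 in WT. It read 206, 160 and 457 in libraries labelled cKO and 741, 964 and 794 in WT at E17.5; the genotype difference was not called on any day. Rxra fell by 1.11 in cKO and by 1.51 in WT on the log2 scale, and the selenophosphate synthetase gene Sephs2 fell by 1.69 in cKO and by 1.41 in WT. Rxrg rose by +5.97 ± 0.62 in cKO and showed -0.30 ± 0.62 in WT, where it was not called; its genotype difference varied between the 4 days (joint F = 21.5, limma adjusted p = 4.75e-05).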
